A study of Mus musculus with 10 samples.

Results

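The 10 genes described here encode subunits of Polycomb repressive complex 2 (PRC2). They are Ezh1, Ezh2, Eed, Suz12, Rbbp4, Jarid2, Aebp2, Phf1, Mtf2 and Phf19, taken by symbol, whatever their values, from count tables of 24500 genes. ChIP-seq for H3K27me3 and EZH2 was carried out in E14 mouse ES cells of strain 12910la, in a control (wild-type) line and in ex14D-Ezh2 cells. Each antibody had 2 libraries per genotype, and each genotype had 1 input library. The ex14D cells carry a CRISPR-Cas9 in/del in exon 14 of Ezh2, so that only the splice isoform without that exon is functional. The labels call them a knockout of exon 14, and the sample titles read Ezh2KO, a name the study uses for a separate line. The labels do not say whether libraries came from separate cultures or clones, so p-values measure only the spread between these libraries. Reads of the H3K27me3 and input libraries were counted over a 1 kb promoter window centred on the 5′ most transcription start site (TSS). Because the EZH2 counts followed gene length, they are described as counts over genes.

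PRC2 places methyl groups on lysine 27 of histone H3, and trimethylation there (H3K27me3) marks silenced developmental genes in ES cells. EZH1 and EZH2 are its alternative catalytic subunits, which act only together with EED, which binds methylated H3K27, SUZ12, the scaffold, and the histone chaperone RBBP4 or its paralog. JARID2 and AEBP2 are accessory subunits that help the complex engage chromatin, and PHF1, MTF2 and PHF19 are the Polycomb-like proteins, which bind CpG-rich DNA and H3K36-methylated histone.

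The libraries differed in depth and in how many reads fell on counted windows. Reads on genes numbered 594289 to 1450937 in the H3K27me3 libraries, 409371 to 416778 in the inputs and 13628137 to 18403892 in the EZH2 libraries. At the markers of ES cell state, 1 of 8 pluripotency promoters was marked by H3K27me3 in control, against 8 of 9 promoters of mesoderm, neural, endoderm and fibroblast genes. In ex14D these counts were 0 of 8 and 7 of 9. Over all promoters 11.3% were marked in control and 9.14% in ex14D. ChIP reads do not measure expression. Nor can reads at Ezh2 check the genotype, since the in/del lies within 1 exon of a gene that was counted as a whole.

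Ezh2, the edited gene, is described first. In GRCm38 it runs from 47595270 back to 47530274 on chromosome 6, reverse strand. Its 1 kb window held few H3K27me3 reads. The window had 4 and 5 reads in the control libraries, or 6.73 and 5.34 reads per 1000000 reads on genes (CPM), and 9 and 12 reads in ex14D, or 6.20 and 9.62 CPM. The inputs had 44.0 CPM in control and 52.8 CPM in ex14D, so every H3K27me3 library was below its input. EZH2 reads over the gene were 60.0 and 61.7 CPM in control and 66.3 and 63.7 CPM in ex14D. Their log2 fold change was 0.05 (SE 0.06, 95% interval -0.08 to 0.19, adjusted p = 0.730, edgeR's quasi-likelihood test). No peak or domain touched the Ezh2 promoter or gene in any of the 8 ChIP libraries.

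Of the 10 members, Phf19 was the 1 whose promoter was marked by H3K27me3 in control cells. A promoter was called marked when log2((CPM + 1)/(input CPM + 1)) was at least 1 in both libraries of a genotype, and 11.3% of all 24500 promoters met this in control. In ex14D the count was again 1 member, Phf19, with 9.14% of all promoters marked. The upstream sequences of 3 members (GRCm38, RefSeq promoters, 250 bases ending at the base before the start site, 5′ to 3′, CpG in capitals) show how their DNA differs. Phf19 is shown as the marked promoter, Aebp2 as the one with partial signal and Ezh2 as a CpG-rich promoter without the mark. They lie at chr2:34913977-34914226 (reverse strand), chr6:140622413-140622662 (forward strand) and chr6:47595031-47595280 (reverse strand).
Phf19: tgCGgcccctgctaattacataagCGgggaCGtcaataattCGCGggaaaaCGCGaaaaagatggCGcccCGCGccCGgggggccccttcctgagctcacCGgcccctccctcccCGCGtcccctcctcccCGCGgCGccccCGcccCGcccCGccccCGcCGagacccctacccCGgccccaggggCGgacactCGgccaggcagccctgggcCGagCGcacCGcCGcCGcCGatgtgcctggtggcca
Aebp2: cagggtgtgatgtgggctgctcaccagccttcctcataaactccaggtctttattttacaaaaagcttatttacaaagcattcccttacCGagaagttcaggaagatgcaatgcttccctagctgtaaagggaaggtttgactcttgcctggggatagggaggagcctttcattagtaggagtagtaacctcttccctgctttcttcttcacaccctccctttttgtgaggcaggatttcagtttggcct
Ezh2: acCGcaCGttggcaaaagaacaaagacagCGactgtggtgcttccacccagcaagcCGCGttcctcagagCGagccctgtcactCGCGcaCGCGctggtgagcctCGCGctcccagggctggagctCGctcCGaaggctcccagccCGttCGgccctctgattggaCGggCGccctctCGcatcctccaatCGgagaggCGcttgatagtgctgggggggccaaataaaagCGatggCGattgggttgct

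These stretches hold 31 CpG in Phf19, 1 in Aebp2 and 23 in Ezh2. Their GC content was 75.2%, 46.4% and 63.6% in that order.

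Phf19 occupies chromosome 2 between 34893752 and 34914353, reverse strand. Its promoter window held 183 and 252 H3K27me3 reads in control, or 308 and 269 CPM, and 328 and 217 reads in ex14D, or 226 and 174 CPM. The inputs had 48.9 CPM in control and 72.0 CPM in ex14D. All 4 H3K27me3 libraries were therefore above input. Against input the log2 values were 2.63 and 2.44 in control and 1.64 and 1.26 in ex14D, higher than 96.2% and 92.1% of all promoters by the mean of each genotype. The difference of the means was -1.08. The exact two-sided permutation test gave p = 0.333 (n = 2 and 2), the smallest value that 2 libraries against 2 allow. The inputs held only 20 reads in control and 30 in ex14D. Against the mean of both inputs the genotypes lay closer, at 2.23 in control and 1.70 in ex14D.

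**Figure D1:**
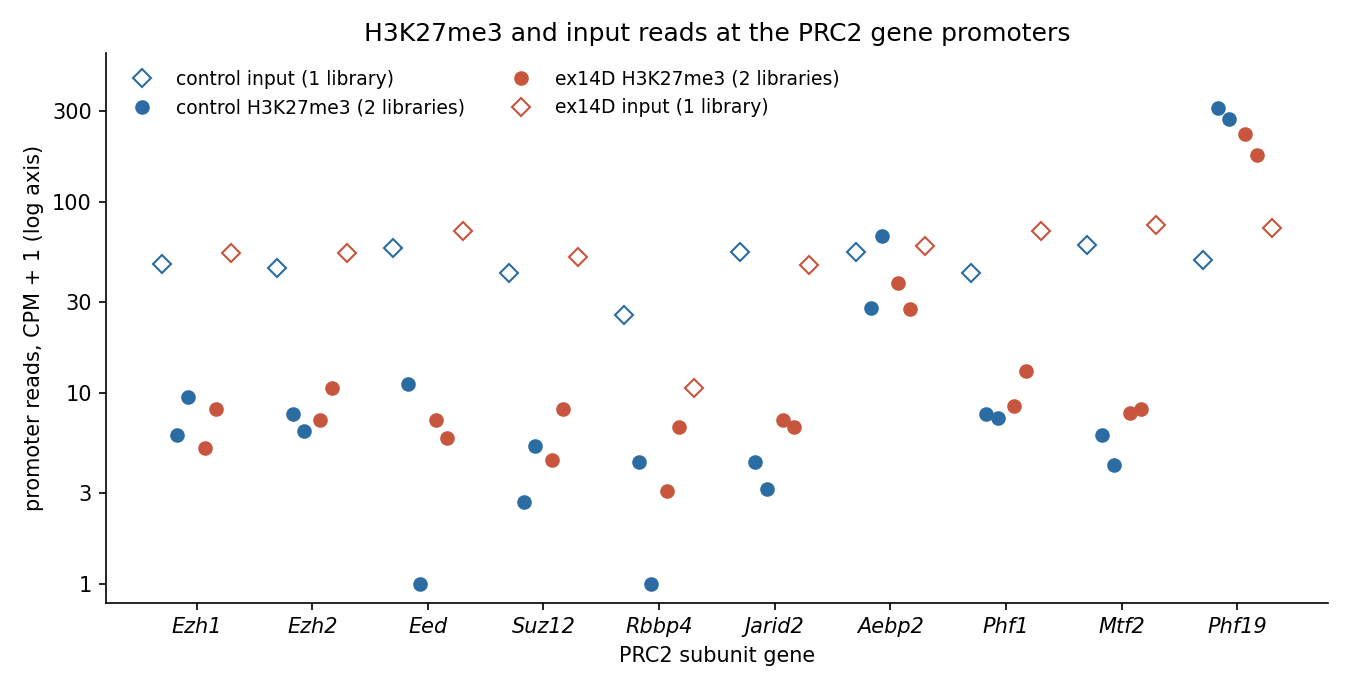
H3K27me3 and input reads in the 1 kb promoter window of each gene (CPM + 1, log axis), 1 point per library, blue for control and red for ex14D, filled for H3K27me3 and open for input. At Phf19 the H3K27me3 points lie between 174 and 308 CPM, above both inputs, while at 8 genes they lie at 12.0 CPM or lower.

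Aebp2 stood between Phf19 and the rest. The gene occupies chromosome 6 from 140622454 to 140678472 on the forward strand. Its H3K27me3 reads were 16 and 61 in control, or 26.9 and 65.1 CPM, and 53 and 33 in ex14D, or 36.5 and 26.4 CPM, beside inputs of 53.7 and 57.6 CPM. The control libraries differed from each other by more than the genotype means did (46.0 CPM in control and 31.5 CPM in ex14D), and the groups overlapped. Against input the log2 values were -0.97 and 0.27 in control and -0.64 and -1.09 in ex14D, so 1 of 4 libraries exceeded its input. The mean nevertheless exceeded 72.3% of all promoters in control and 73.6% in ex14D, since the median over all promoters was -1.51 and -1.93.

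At the other 8 members H3K27me3 was below input in every library, with each library scaled to its reads on genes. The median promoter was also below input on this scale. By their means the 8 exceeded 0.967% (Eed) to 21.9% (Phf1) of all promoters in control. In ex14D Rbbp4, with 4 input reads, exceeded 68.7%, and the rest exceeded 1.63% (Eed) to 19.9% (Ezh2). Scaled to all counted reads, the mean of Rbbp4 in ex14D was above input (0.10 on the log2 scale), and the 8 members lay between -0.80 and -0.37 in control. On that scale Jarid2 in control had 0.19 and 0.13 CPM against 1.02 CPM of input. The 1 CPM added to each value therefore draws these ratios towards 0. Summed over the 8 promoters, reads numbered 25 and 28 in control and 62 and 74 in ex14D, or 42.1 and 29.9 CPM against 42.7 and 59.3 CPM. The nearest control and ex14D sums differed by less than 1 CPM. Single promoters ranged from 0 to 10.1 CPM in control and from 2.07 to 12.0 CPM in ex14D, whereas their inputs ranged from 9.60 to 74.4 CPM. Eed and Rbbp4 had no read in control replicate 2, which allows up to 3.20 CPM (3 reads, counting error only).

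Among these 8, the levels of neighbours in rank were not separable. The catalytic Ezh1, on chromosome 11, had 3 and 8 reads in control and 6 and 9 in ex14D. Of the core genes, Eed on chromosome 7 had 6 and 0 reads in control and 9 and 6 in ex14D. Suz12 on chromosome 11 had 1 and 4 reads in control and 5 and 9 in ex14D. Rbbp4 on chromosome 4 was lowest in control, with 2 and 0 reads there and 3 and 7 in ex14D, and it also had the fewest input reads, 10 and 4. The Rbbp4 window overlaps that of Zbtb8os, whose TSS is 598 bp away, so reads in the overlap could not be assigned to either gene.

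The remaining accessory genes were as low. Jarid2 on chromosome 13 had 2 reads in each control library and 9 and 7 in ex14D. The Polycomb-like gene Mtf2 on chromosome 5 had 3 reads in each control library and 10 and 9 in ex14D. Phf1 on chromosome 17, the shortest member at 4.78 kb, had 4 and 6 reads in control and 11 and 15 in ex14D. In CPM, which accounts for the larger ex14D libraries, Jarid2 had 3.37 and 2.13 in control and 6.20 and 5.61 in ex14D. Mtf2 had 5.05 and 3.20 against 6.89 and 7.21, and Phf1 had 6.73 and 6.40 against 7.58 and 12.0. At these few reads per library, the 95% counting intervals of control and ex14D overlapped at each of these genes.

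The H3K27me3 fit across all genes asked whether the mark differed between the genotypes. It tested 14883 promoters and called 483 lower and 867 higher in ex14D (adjusted p under 0.05, 9.07% of those tested). Of the members only Phf19 and Aebp2 had enough reads to be tested, and neither was called, nor did either have an unadjusted p under 0.05. Phf19 had a log2 fold change of -0.08 (SE 0.21, 95% interval -0.50 to 0.35, adjusted p = 0.885, edgeR with TMM scaling). Aebp2 had -0.15 (SE 0.37, 95% interval -0.90 to 0.60, adjusted p = 0.877, edgeR).

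These values compare a promoter with the other reads of its library and do not measure the total amount of the mark. The Phf19 value moved with the scaling. Without TMM, on library size only, all promoters had a median of -0.47, 2130 promoters were called lower and 398 higher, and Phf19 was at -0.52 (adjusted p = 0.0865, edgeR). Relative to the median of all promoters it was at -0.05 under either scaling. Centred on unmarked promoters it was at 0.06. The 2658 tested promoters marked in control had a median of 0.33 with TMM, and 25.3% of them had a lower value than Phf19.

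With a filter that kept any promoter with a read, all 10 members were fitted and none was called or had an unadjusted p under 0.05. DESeq2 likewise gave no member an unadjusted p under 0.05. The 8 low promoters had log2 fold changes from 0.03 at Ezh1 to 1.78 at Rbbp4. Jarid2 had the lowest adjusted p of the 10, with 1.51 (95% interval -0.08 to 3.10, adjusted p = 0.332, edgeR). Intervals this wide do not separate no difference from a rise of several fold. All of them also included falls, and that of Ezh1 ran from -1.23 to 1.28.

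The EZH2 fit asked whether EZH2 reads on the member genes differed between the genotypes. It tested 13401 genes, of which 1056 (7.88%) were lower and 7 higher in ex14D. Of the members 6 were tested, 1 was lower and none was higher. The gene that fell was Phf19. It had 565 and 806 reads in control, or 40.8 and 43.8 CPM, and 434 and 509 in ex14D, or 31.8 and 31.0 CPM. Both control libraries were above both ex14D libraries. The log2 fold change was -0.47 (SE 0.07, 95% interval -0.63 to -0.32, adjusted p = 0.00737, edgeR, adjusted over all genes tested by the method of Benjamini and Hochberg). DESeq2 gave -0.48 (adjusted p = 0.0312).

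The Phf19 value was of similar size whichever library was left out, from -0.52 to -0.42. The call was lost without control replicate 1 (-0.52, adjusted p = 0.155, edgeR) and without control replicate 2 (-0.42, adjusted p = 0.196, edgeR), and in both of those fits no gene of the table passed, against 1372 and 1300 lower at an unadjusted p under 0.05. Among 1625 tested genes with an H3K27me3-marked promoter in control, the median EZH2 log2 fold change was -0.32, and 39.0% lay below Phf19.

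Per kb of gene, Phf19 also carried the most EZH2 reads of the 6. No input was counted over genes, and Phf19 is the shortest of the 6, at 20.2 kb against 28.3 to 191 kb. A domain of a given width therefore fills more of it. Phf19 had 2.02 and 2.17 CPM per kb in control and 1.57 and 1.53 in ex14D. These levels exceeded 93.6% of the 13884 genes with reads in control and 93.2% in ex14D. The other members lay nearer to the median of all genes, from Rbbp4, above 22.6% of genes in control, to Jarid2, above 71.3%. That median was 0.966 in both control libraries and 1.00 and 1.03 in ex14D.

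**Figure D2:**
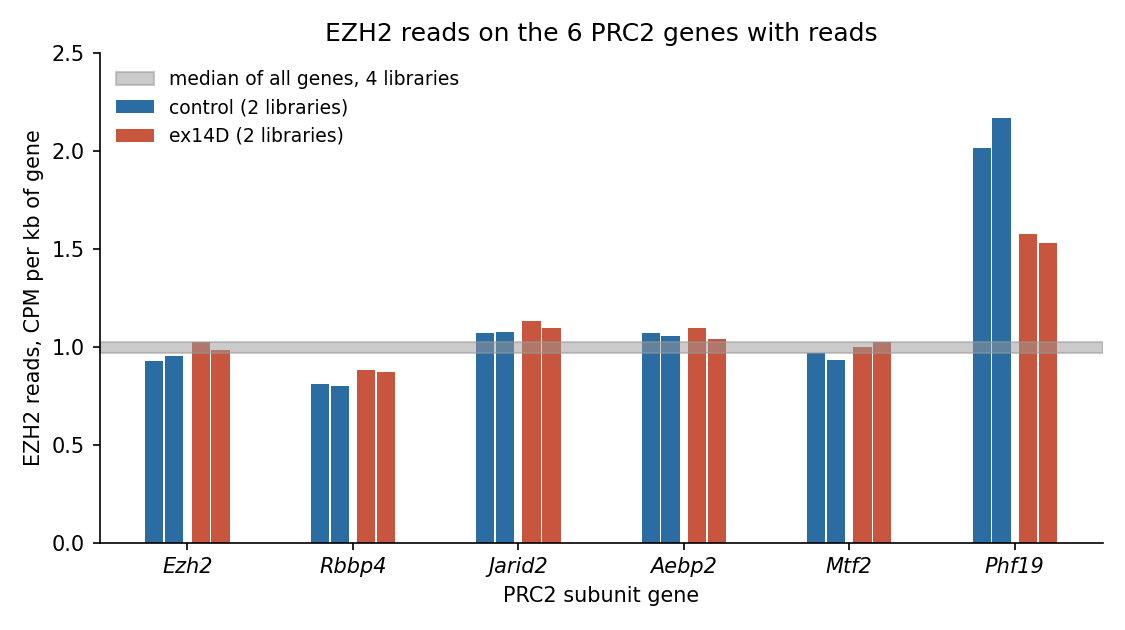
EZH2 reads (CPM per kb of gene) for the 6 members with EZH2 reads, 1 bar per library, blue for control and red for ex14D. The grey band spans the median of all genes in the 4 libraries. Phf19 stands above the band in all 4 libraries, at 2.02 and 2.17 in control and 1.57 and 1.53 in ex14D.

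Below Phf19 the order in control was Jarid2 at 1.07, Aebp2 at 1.06, Mtf2 at 0.950, Ezh2 at 0.939 and Rbbp4 at 0.805 CPM per kb (means of 2). The libraries of Mtf2 and Ezh2 overlapped, so these neighbours did not differ beyond their spread, while both Jarid2 libraries lay just above both Aebp2 libraries. In ex14D the levels were 1.11, 1.07, 1.01, 1.00 and 0.877 in the same order of genes. None of the 5 passed the test. Rbbp4 had a log2 fold change of 0.08 (95% interval -0.08 to 0.24), Mtf2 0.05 (-0.08 to 0.19), Jarid2 0.01 (-0.08 to 0.10) and Aebp2 -0.03 (-0.17 to 0.10), with adjusted p from 0.651 to 0.930 (edgeR). A change of the whole-gene count as large as that of Phf19 lies outside each of these intervals. Counts over a whole gene could miss a local change, for example at the EZH2 domain of 1000 bp within the 191 kb of Jarid2.

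Ezh1, Eed, Suz12 and Phf1 are listed at 0 in all 4 EZH2 libraries, as are 10575 of the 24500 genes. Each sits in a stretch of neighbouring genes that are all listed at 0. Ezh1 and Suz12 share a stretch of 1388 genes over 66.3 Mb of chromosome 11, the stretch at Eed holds 566 genes over 38.9 Mb of chromosome 7, and that at Phf1 holds 72 genes over 2.69 Mb of chromosome 17. EZH2 domains were called inside each of these stretches in all 4 libraries, from 185 to 403 per library in that of Ezh1 and Suz12, so these zeros are not read as absence of EZH2. No EZH2 fold change is given for the 4 genes.

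**Figure D3:**
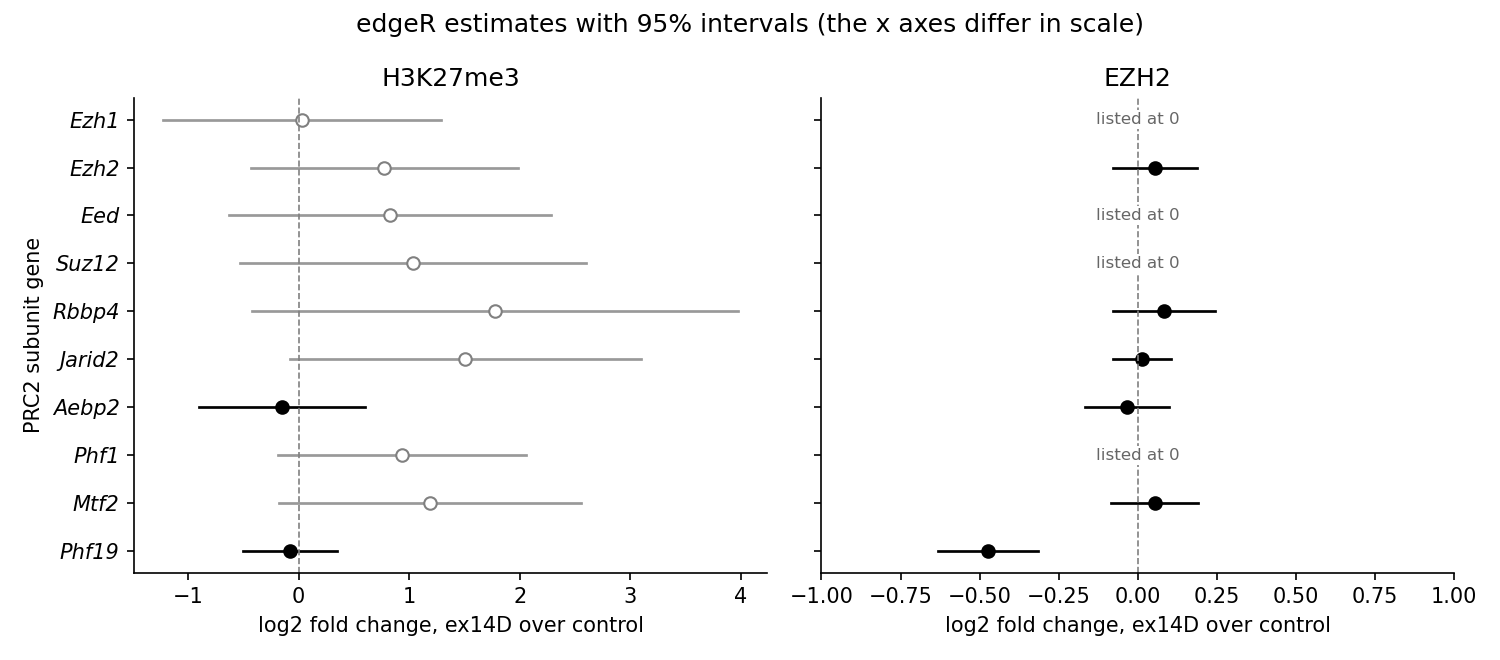
Log2 fold change of ex14D over control for H3K27me3 (left) and EZH2 (right), with 95% intervals from edgeR. Filled points passed the filter on low counts, open grey points come from the fit that kept any promoter with a read, and the axes of the panels differ in scale. The EZH2 interval of Phf19, -0.63 to -0.32, is the one that does not include 0.

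The called intervals do not rest on the deposited counts. Enriched intervals were called by the authors in each library, as MACS2 broad peaks for H3K27me3 and hiddenDomains domains for EZH2. An interval overlapped the 1 kb window of 1, 2, 2 and 1 members in the H3K27me3 libraries (control 1 and 2, ex14D 1 and 2) and of 2, 2, 1 and 1 members in the EZH2 libraries. Among all 24366 placed genes the share with an interval was 16.8% to 23.7% for H3K27me3 and 11.3% to 22.3% for EZH2. The H3K27me3 shares of the genotypes overlapped, but the EZH2 shares did not. An EZH2 domain was found at 4137 and 5433 of these genes in control and at 2933 and 2753 in ex14D. The EZH2 libraries held 7322 and 7704 domains in control and 5067 and 4122 in ex14D. Fewer EZH2 domains in ex14D were therefore not particular to the members.

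Phf19 had an interval over its start site in all 8 ChIP libraries. Its H3K27me3 peaks were 6015 and 4391 bp wide in control and 3722 and 4002 bp in ex14D, so both ex14D peaks were narrower. Their fold enrichment was 3.97 and 3.57 in control and 4.10 and 7.54 in ex14D. The −log10 q was 6.90 and 6.96 in control and 11.3 and 25.3 in ex14D. The enrichment given by the peak caller was thus higher in both ex14D libraries. The reads over input in the 1 kb window were lower, by less against the mean of both inputs. The EZH2 domains, called in steps of 1000 bp, were 3000 and 5000 bp wide in control and 2000 bp in each ex14D library. The control domains reached 1975 and 2975 bp past the start site and both ex14D domains reached 975 bp.

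**Figure D4:**
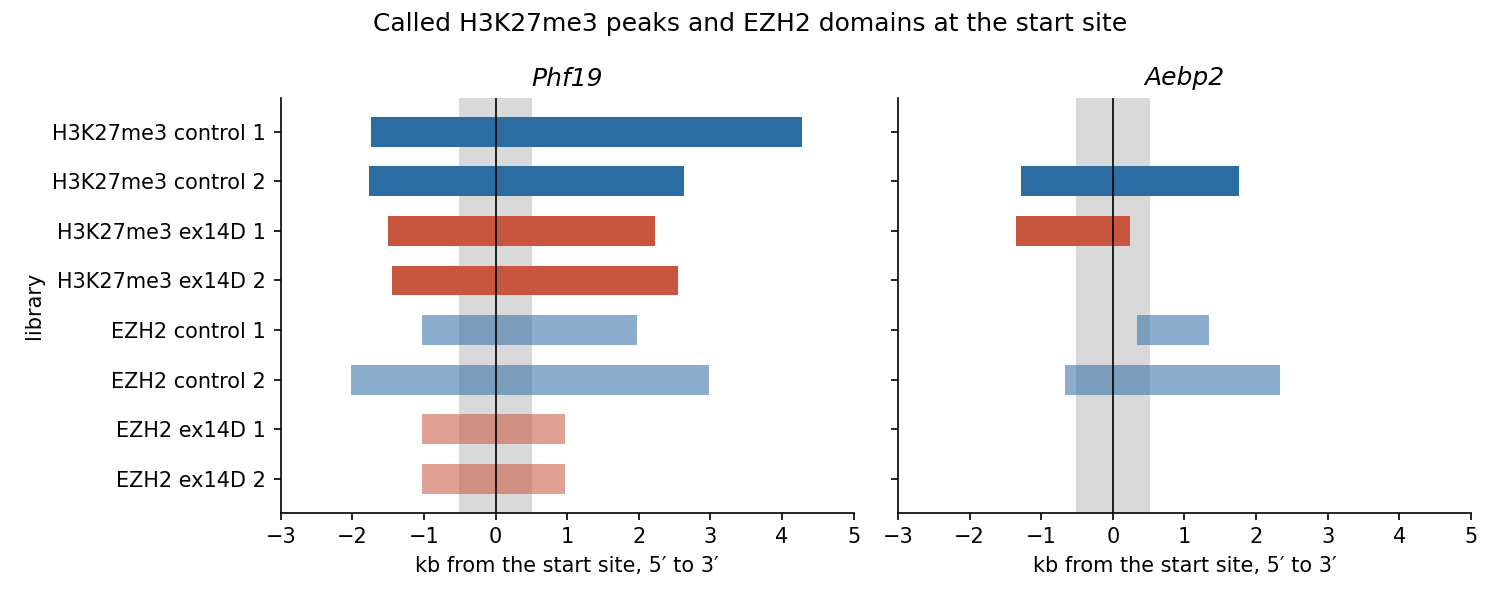
Called H3K27me3 peaks (dark bars) and EZH2 domains (light bars) at the start sites of Phf19 (left) and Aebp2 (right) in each library, blue for control and red for ex14D, in kb from the start site, with the 1 kb window in grey. Phf19 has a bar in all 8 libraries, and its EZH2 bars span 3000 and 5000 bp in control and 2000 bp in ex14D. Aebp2 has EZH2 bars in the control libraries only.

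Aebp2 had an H3K27me3 peak over its start site in control replicate 2 (3045 bp, 2.27-fold enrichment) and ex14D replicate 1 (1584 bp, 3.11-fold), and none in the other two. An EZH2 domain of 1000 bp lay from 338 to 1337 bp past the start site in control replicate 1, and one of 3000 bp covered the site in control replicate 2. Neither ex14D library, each with fewer EZH2 domains than either control library, had an EZH2 domain there, and the nearest was 625 kb away. The EZH2 reads over the whole gene of 55.8 kb did not follow this difference, with a log2 fold change of -0.03. RefSeq gives further start sites for Aebp2, 2246 and 4222 bp downstream. The 300 bases around the first of these hold 21 CpG, an observed over expected ratio of 0.774, against 4 CpG and 0.232 at the 5′ most site. The reads counted for Aebp2 came from the 5′ most window, so that CpG-rich site was not counted.

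The remaining 8 members had no interval over their window in any of the 8 libraries. The nearest H3K27me3 peak was at least 8.48 kb and the nearest EZH2 domain at least 11.9 kb from their start sites, both at Phf1. Downstream of Phf1 an EZH2 domain lay 12.9 and 11.9 kb away in the control libraries, and in ex14D the nearest were 80.1 and 81.1 kb away on the other side. H3K27me3 peaks remained within 16.5 kb of Phf1 in all 4 libraries. The intervals nearest to Ezh1 covered the start site of its neighbour Ramp2 in all 8 libraries, 17.1 to 19.5 kb upstream of Ezh1.

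Jarid2 was the 1 member with an interval inside the gene but away from the promoter. It lay about 138 kb into the gene of 191 kb, overlapping no annotated exon. H3K27me3 peaks of 489 to 540 bp were called there in all 4 libraries, with fold enrichment of 4.93 and 7.20 in control and 1.32 and 4.39 in ex14D. The −log10 q of these peaks was 10.7 and 25.5 in control and 0.968 and 10.8 in ex14D, so the peak of ex14D replicate 1 was weak. The EZH2 domain at chr13:44869001-44870000 had the same ends in all 4 libraries.

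CpG content did not separate the marked member from the others. Within 1 kb of the start site, 8 of 10 members were CpG-rich (observed over expected CpG of at least 0.6 and GC of at least 50%), against 43.7% of all promoters. Phf19 had 82 CpG and a ratio of 0.784. Of the 7 other CpG-rich members all were unmarked, with ratios from 0.796 at Ezh1 to 0.960 at Ezh2 and Rbbp4. The members below the limit were Phf1 at 0.551 and Aebp2 at 0.434. Over the genome 18.4% of CpG-rich promoters and 5.85% of the others were marked in control.

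**Figure D5:**
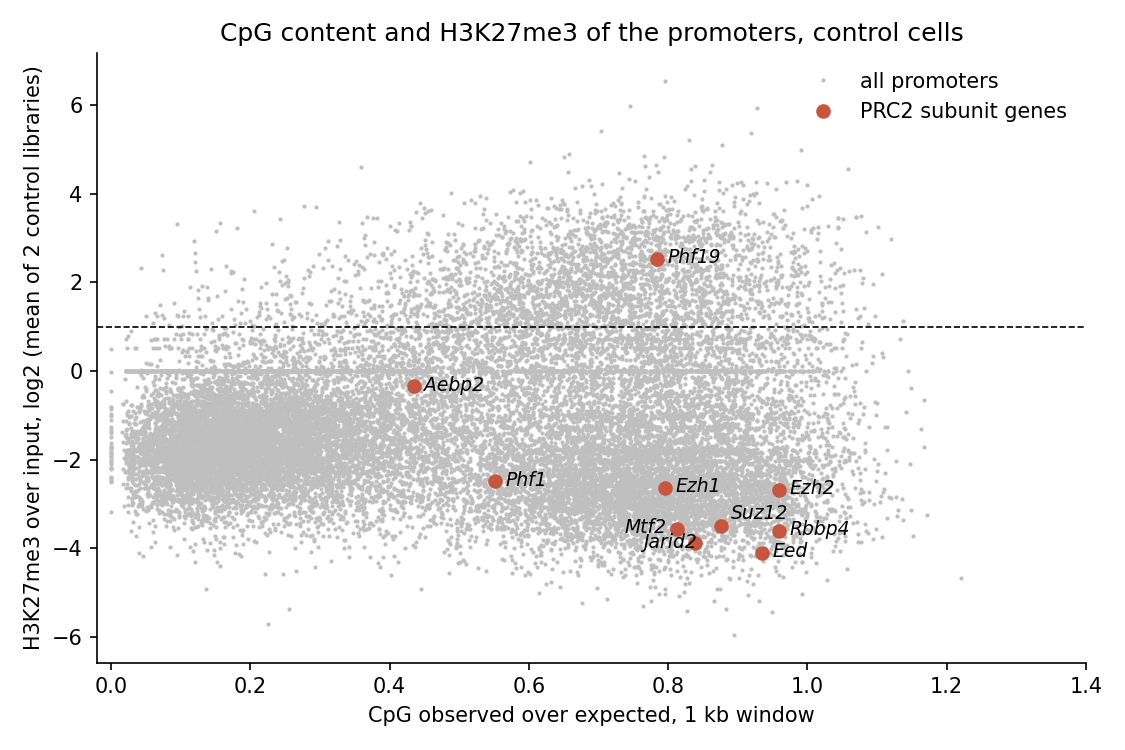
Observed over expected CpG in the 1 kb window against H3K27me3 over input (log2, mean of the 2 control libraries), with all promoters in grey and the members in red. The dashed line is the limit of 1 for a marked promoter, and promoters with no read in any library lie at 0. Phf19 lies above the line at 2.53, and the other CpG-rich members lie at -2.64 or lower.

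E2F and MYB family factors are known activators of cell cycle genes, and their short DNA words were searched on both strands of the 300-base promoters (250 before and 50 after each start site). The E2F word TTTNNCGC, found in 5.17% of 32851 promoters, was present in 3 of 10 members. Phf19 had matches starting at -208 and -198 from its start site, inside the sequence printed above, Suz12 had 1 at -219 and Ezh2 1 at 3. The MYB word AACNG is common, in 80.3% of all promoters, and was present at the 5′ most start site of 6 of 10 members. A match is a description of the letters only.

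Other genes of the Polycomb system were read from the same fits, from lists chosen with earlier results known. Of 5 other PRC2-associated genes none was marked. Epop, listed as E130012A19Rik, which encodes a partner of PRC2 and elongin, had 43.7 and 26.7 CPM of H3K27me3 in control and 8.96 and 12.0 CPM in ex14D, a log2 fold change of -1.25 (adjusted p = 0.0390, edgeR), and 1 of 3 tested was thus lower. The Epop call was lost with DESeq2 (adjusted p = 0.136), when centred on unmarked promoters (adjusted p = 0.0711, edgeR) and without any 1 of the 4 libraries, where the adjusted p reached 0.329 (edgeR). For EZH2 1 of the 5 was tested and not called, and 4 were listed at 0. Of the 3 H3K27 demethylase genes none was marked or called with either antibody.

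Of 4 genes for activators of Ezh2 transcription none was marked and 1 of 4 was lower for EZH2. It was E2f2, with 29.6 and 33.5 CPM in control and 25.4 and 25.1 CPM in ex14D (log2 fold change -0.37, adjusted p = 0.0326, edgeR). That call was lost with DESeq2 (adjusted p = 0.293) and with a replicate block (-0.37, adjusted p = 0.0786, edgeR). It was also lost without control replicate 1 (-0.45) or 2 (-0.27). Its H3K27me3 value of -0.27 did not pass (adjusted p = 0.707, edgeR).

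The PRC1 genes encode the other main Polycomb complex, which binds H3K27me3 through its CBX subunits and ubiquitinates histone H2A. Most of the 20 genes on this list were unmarked in control, where 11.3% of all promoters were marked. Most of the 13 tested for H3K27me3 were not called, and 867 of all 14883 tested promoters were higher. Cbx8, Bmi1 and Yaf2 are described because they were marked, and each was marked in both genotypes. For H3K27me3 Cbx8 rose by 0.97 (95% interval 0.55 to 1.39) and Bmi1 by 1.11 (0.69 to 1.52) on the log2 scale, while Yaf2 was at 0.58 (adjusted p = 0.149, edgeR). Without control replicate 2 the calls of Bmi1 and Cbx8 were lost, with adjusted p = 0.0641 and 0.117 (edgeR), and Cbx8 also lost its call without ex14D replicate 2 and on library size only. The upper bound of Phf19, 0.35, lies below the lower bounds of Cbx8 and Bmi1. The difference between the genes was not tested. None of 9 tested PRC1 genes was called for EZH2, with 1 at an unadjusted p under 0.05, and 11 were listed at 0. DESeq2 also called none.

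As a reference for well-known targets, 6 of 7 genes used in the study's ES cell ChIP-PCR were marked in control. Of the 7, 5 were higher and 1, Elavl3, lower for H3K27me3, and 3 of 6 tested were lower for EZH2 (Hoxa10, Pax7 and Elavl3). The EZH2 calls of Hoxa10, Pax7 and Elavl3 were lost in 4, 3 and 9 of 12 alternatives. Of the 9 lineage genes, 6 were higher and none was lower for H3K27me3 on the same relative scale, and 7 of 8 tested were lower for EZH2. Over all those tested, 867 of 14883 promoters were higher and 483 lower for H3K27me3, and 7.88% of genes were lower for EZH2. Each lineage H3K27me3 call was lost in at least 1 of 13 alternatives, most often for Gata6 (5) and Sox17 (4). Each lineage EZH2 call was lost in at least 2 of 12.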

How the data were processed

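Groups of H3K27me3, EZH2 and input ChIP-seq libraries follow the genotype and antibody that the labels give. The authors aligned reads with Bowtie and the mm10 annotation, counted them per gene with htseq-count, and deposited counts without normalization. The submitters' processing notes name Trimmomatic, Bowtie2, MACS2, ChIPseeker and HTSeq. MACS2 broad peaks were called and deposited by the authors for each H3K27me3 library, with a fold enrichment, −log10 p and −log10 q, and a score that was not used here. EZH2 domains of hiddenDomains were used as deposited, without a posterior probability. The deposited H3K27me3 domains were not used, because their ends run past the ends of mm10 chromosomes. The methods define the counting window as a 1 kb promoter for all libraries, but the EZH2 counts followed gene length and were treated as counts over genes. Which control MACS2 was given is not given in the sources used here. Rows that name no gene stayed out of library sizes, which left 5.65% to 7.58% of counted reads on genes for H3K27me3, 1.90% to 1.92% for input and 43.9% to 44.3% for EZH2, where a further 21.2% to 21.9% were ambiguous.

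All 24500 genes were fitted for each antibody with edgeR 4.0.16 in R 4.3.3 by the quasi-likelihood F test with genotype only, after TMM scaling and the filterByExpr filter. P-values were adjusted by the method of Benjamini and Hochberg, with a threshold of 0.05. DESeq2 1.42.0, other scalings, filters, pseudocounts, overlaps, a replicate block and each library left out were alternatives. The procedure was tested on simulated data. H3K27me3 over input used a pseudocount of 1 CPM. RefSeq on GRCm38 placed 24366 genes, and an interval counted at a promoter when it overlapped the 1000 bp window by 1 bp. EZH2 levels per kb divide by the gene's length. Libraries of 1 group differed by more than sampling noise (chi-square per degree of freedom 1.49 to 4.00). Other steps used Python 3.11.15, pandas 2.3.3 and scipy 1.17.1.

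The genes named are all 10 members and, from the other lists, genes marked in control or past the threshold, of which examples are given. The members and lists were chosen with earlier results of these data known. Intervals and limits for counts of 0 cover counting error only. For the PRC1 list, 1 gene is not reported here.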

Additional observations from a re-analysis of the deposited data

How the results depend on the processing

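No H3K27me3 call was made at a member under any of the 13 alternatives, but the sign was not fixed. Phf19 was at -0.52 on library size only and above 0 when centred on unmarked promoters (0.062), and ranged from -0.27 to 0.11 when a library was left out, the highest without ex14D replicate 2. Aebp2 then ranged from -0.62 to 0.63, above 0 without either control replicate 2 or ex14D replicate 2 (0.08). The fall of EZH2 reads at Phf19 was past the threshold in 10 of 12 alternatives, so the count of 1 EZH2 call among members ranged from 0 to 1 when a library was left out. The cause was not tested, and the lone library of a group is then assumed to vary like the other group. EZH2 values of uncalled members crossed 0 at Aebp2 (0.0079 on library size only, and -0.095 to 0.0089 when a library was left out), Ezh2 (-0.0020 to 0.089) and Jarid2 (-0.038 to 0.042). The labels share replicate numbers between groups, but libraries of the same number did not deviate together across genes (correlation -0.10 for H3K27me3 and -0.03 for EZH2). Such a correlation cannot show whether they shared a day, culture or batch, which the labels do not say. With the replicate block, 411 promoters were lower and 765 higher for H3K27me3 and 852 genes lower and 3 higher for EZH2, and Phf19 stayed called for EZH2 (-0.47, adjusted p = 0.0271, edgeR). Crossing the numbers, an alternative chosen after seeing the data, gave 802 lower and 1183 higher for H3K27me3.

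For the lists of other Polycomb genes and ChIP-PCR targets, also added after seeing the data, 10 H3K27me3 calls became 3 without control replicate 2, and 4 EZH2 calls became 2 with DESeq2, 2 with the replicate block (E2f2 then had adjusted p = 0.0786, edgeR) and 0 to 9 when a library was left out. These EZH2 counts cover all genes of the lists, so a call counted under an alternative need not be 1 of the first 4. With the replicate block all 4 were lost, Hoxa10 at adjusted p = 0.0634, Pax7 at 0.0501 and Elavl3 at 0.0937 (edgeR). With DESeq2 only Pax7 of the 4 stayed called (adjusted p = 0.0488). An H3K27me3 peak in both control libraries was called at 1 member, and likewise in ex14D. The count was 1 to 2 members when a library was left out. Members with an EZH2 domain in both control libraries went from 2 to 1 with at least 500 bp of the window covered. Over all counted reads as the library, Aebp2 was above input in both genotypes (0.80 and 0.63 on the log2 scale), and Phf19 stayed highest of the members (3.20 and 2.68). Of all genes, 2130 were lower for H3K27me3 on library size only, 269 with DESeq2 and 282 when centred on unmarked promoters, against 483. Lower and higher calls for H3K27me3, 483 and 867 with all libraries, were 55 and 183 without control replicate 2, 158 and 474 without ex14D replicate 1, and 105 and 429 without ex14D replicate 2, so the share called rests on these libraries. The few H3K27me3 reads at 8 promoters limit what could be detected there.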
